A study of Rattus norvegicus with 4 samples.

Results

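AP-1 is a family of dimeric transcription factors built from basic leucine zipper (bZIP) proteins, and 10 of its genes were followed here across 4 cultures of primary rat astrocytes. They were Fos, Fosb and Fosl1 of the Fos subfamily, Jun, Junb and Jund of the Jun subfamily, the activating transcription factor gene Atf3, the small Maf gene Maff, and the BATF genes Batf2 and Batf3. Members were taken by gene symbol from probes that the annotation gives a single symbol, and of several such probes the brightest on average was used. All 10 had a probe, out of 18166 genes on the array with one, and all 10 passed the filter on low values that left 11790 genes.

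Astrocytes are glial cells that support neurons and respond to injury. The cultures came from the cerebral cortex of 1-day-old Sprague-Dawley rats and were kept in medium without serum for 2 days to remove microglia and meningeal cells. Each of the 4 groups held 1 culture and 1 array: control siRNA without treatment, control siRNA with interferon-γ (IFN-γ), control siRNA with IFN-γ and a compound that the labels call only GW, and SHP siRNA with IFN-γ and GW. Treatment lasted 3 h, every culture received an siRNA, and neither SHP siRNA without GW nor GW without IFN-γ was analysed here.

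With 1 array per group there is no replicate error, so no p-value, SD or interval is printed, and what separates 2 conditions cannot be told apart from what separates 2 single cultures. Precision is therefore limited by the number of arrays. As a scale, each difference is set beside the middle 95% of differences over the 11790 genes and beside the share of those genes that reached 2-fold. In RNA from a whole culture, more cells of a type and more RNA per cell cannot be told apart.

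Fos proteins pair with Jun proteins through their leucine zippers, and the dimers bind short palindromic sites in promoters and enhancers. Several of the genes are immediate early genes, which many stimuli switch on through MAP kinases without new protein synthesis and whose transcripts decay fast. Small Maf proteins such as MAFF lack an activation domain and pair with factors such as NRF2, and BATF proteins pair with Jun proteins and can bind together with interferon regulatory factors. In astrocytes AP-1 is known for its part in the response to injury and inflammation.

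Promoter windows are shown for 4 members, Maff, Junb and Fosl1, which were at least 2-fold higher with IFN-γ, and Jund, the member of the Jun subfamily that differed least. RefSeq's table for rat assembly GRCr8 matched 7 of the 10 members, and Fos, Jun and Atf3 were not among them. For Fosb and Batf2 the window lies inside the annotated gene span, so it was left out, which leaves 5 windows. Each sequence below is the 250 bases before the annotated start, 5′ to 3′ on the gene's strand, and capitals mark every match to the 8 motifs named below. The windows lie at chr7:112792537-112792786 (plus strand) for Maff, chr19:40080876-40081125 (plus strand) for Junb, chr1:212183635-212183884 (plus strand) for Fosl1 and chr16:18769772-18770021 (minus strand) for Jund.
Maff: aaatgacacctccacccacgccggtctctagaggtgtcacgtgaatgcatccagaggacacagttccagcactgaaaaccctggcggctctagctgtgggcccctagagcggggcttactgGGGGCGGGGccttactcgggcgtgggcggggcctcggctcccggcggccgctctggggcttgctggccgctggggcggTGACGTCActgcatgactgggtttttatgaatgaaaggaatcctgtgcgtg
Junb: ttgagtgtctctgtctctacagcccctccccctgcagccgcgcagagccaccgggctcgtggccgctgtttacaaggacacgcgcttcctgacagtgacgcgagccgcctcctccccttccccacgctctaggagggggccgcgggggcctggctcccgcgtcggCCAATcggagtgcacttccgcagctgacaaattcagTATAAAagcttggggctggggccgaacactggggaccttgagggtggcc
Fosl1: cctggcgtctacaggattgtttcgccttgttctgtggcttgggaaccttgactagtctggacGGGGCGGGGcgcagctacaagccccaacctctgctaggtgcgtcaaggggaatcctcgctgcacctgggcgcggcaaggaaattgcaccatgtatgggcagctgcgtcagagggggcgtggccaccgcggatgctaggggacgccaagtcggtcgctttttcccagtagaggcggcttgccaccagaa
Jund: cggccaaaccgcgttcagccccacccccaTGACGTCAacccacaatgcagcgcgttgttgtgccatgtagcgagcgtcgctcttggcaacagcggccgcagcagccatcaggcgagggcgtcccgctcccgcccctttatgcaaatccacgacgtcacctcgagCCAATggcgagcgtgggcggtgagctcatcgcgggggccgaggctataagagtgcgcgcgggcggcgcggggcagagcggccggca

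The Maff and Jund windows both hold the palindrome TGACGTCA, the cyclic AMP response element that ATF, CREB and Jun-containing dimers can bind. It begins 51 bases before the start of Maff and 221 bases before that of Jund. A match to TGACNTCA stood in 8.88% of the 33469 promoter windows of the same length in the table. Junb holds TATAAA 49 bases and CCAAT 85 bases before its start, motifs found in 12.9% and 34.0% of windows, and Jund holds CCAAT at 86 bases. Maff and Fosl1 each hold a GC box, GGGGCGGGG, at 129 and 188 bases, a motif of 8.999% of windows. Batf3, whose sequence is not printed, holds 3 GC boxes, at 134, 116 and 42 bases before its start.

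The other 4 motifs, searched like the first 4 on both strands, had no match in these 5 windows. They were the AP-1 site TGANTCA (6.34% of all windows), the interferon-stimulated response element (3.41%), the CArG box of serum response factor (1.497%) and the κB site of NF-κB (3.54%). The interferon-stimulated response element did match in both windows left out, 73 bases before the start of Batf2 and 214 bases before that of Fosb. No matches overlapped each other in the 5 windows. A match is a run of letters and not a bound site, and its absence concerns only these windows.

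**Figure D1:**
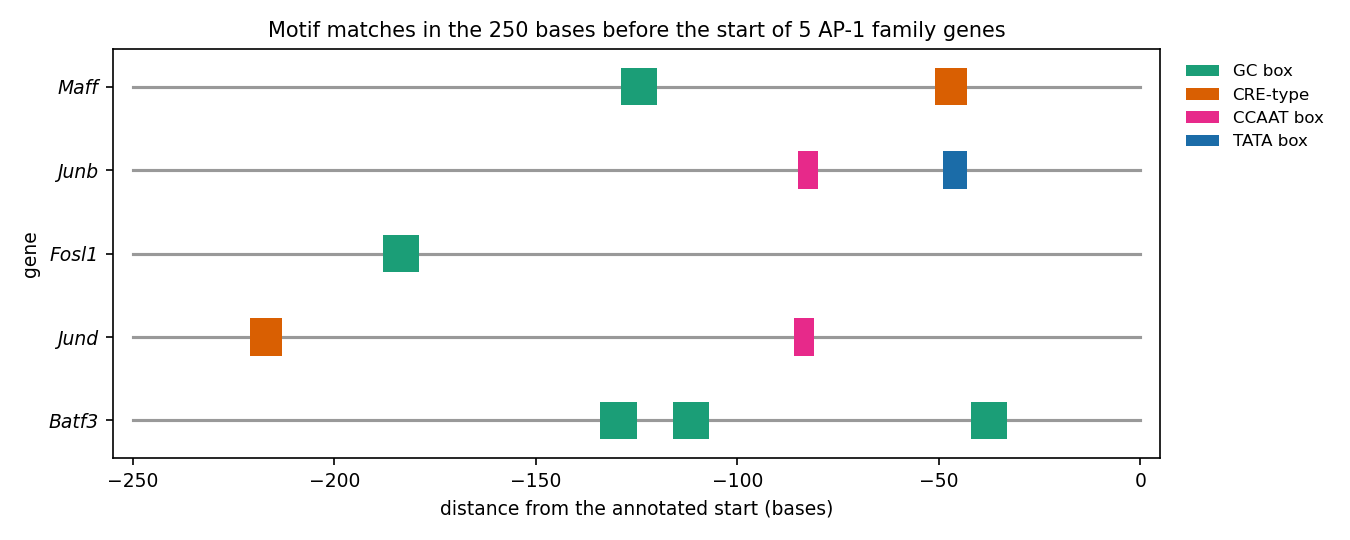
Positions of motif matches in the 250 bases before the annotated start of Maff, Junb, Fosl1, Jund and Batf3. The horizontal axis is the distance from the start in bases, grey lines are the windows and coloured blocks the matches. The TGACGTCA match lies at 51 bases before the start in Maff and at 221 in Jund.

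Median log2 signals of the arrays ran from 5.79 to 5.87. The gene of the siRNA label, Nr0b2, which encodes the small heterodimer partner, had log2 signals of 5.33, 5.14 and 5.20 in the control siRNA cultures and 3.45 with SHP siRNA, all below 5.83, the median of the table, where the background is unknown. Of 10 astrocyte markers 8 were measured, and all 8 lay at or above 5.83 in each array, with Gfap between 12.03 and 12.11. Of 10 microglia markers all 10 lay above it too, and the log2 of their summed signal was 12.75 in the untreated culture, 12.31 with IFN-γ, 11.85 with IFN-γ and GW, and 12.02 with SHP siRNA. Of the measured genes of other lists, 5 of 7 meningeal and fibroblast, 6 of 7 oligodendrocyte, 3 of 7 neuron and 1 of 3 endothelial markers reached the median of the table in the untreated culture. The fibroblast markers Dcn and Lum did not in any culture, while the neuron marker Stmn2 lay between 11.68 and 12.04.

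Among the AP-1 genes, IFN-γ went with higher signal of Maff, Junb and Fosl1, and GW with higher signal of Fosb, Fos, Atf3, Jun and again Fosl1. Under IFN-γ and GW, Fosb, Atf3, Fosl1, Jun and Fos stood lower with SHP siRNA than with control siRNA, Fosb by the widest margin, while Maff and Junb lay inside the middle 95% of genes. Jund, Batf2 and Batf3 stayed within 2-fold across all 4 arrays. Every member value, the lowest at 6.05, lay above the median of the table.

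**Figure D2:**
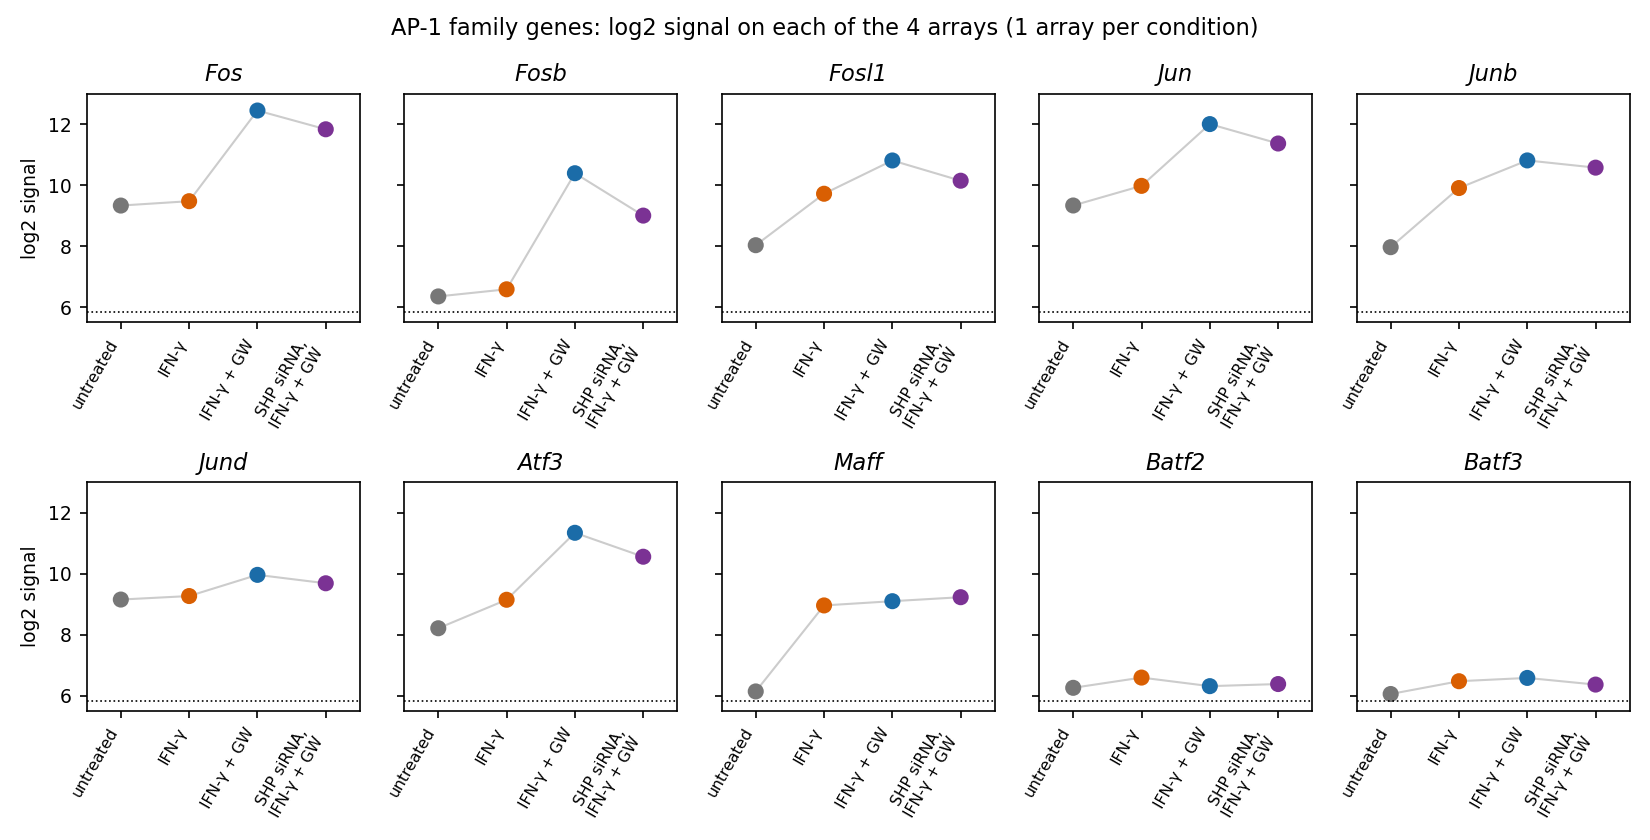
Log2 signal of the 10 AP-1 family genes (1 panel each) in the untreated, IFN-γ, IFN-γ with GW, and SHP siRNA with IFN-γ and GW cultures. Each point is 1 array, the grey lines only join the points, and the dotted line is the table median of 5.83. Maff is low in the untreated culture alone, and Fos and Fosb are high in both cultures with GW.

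Fos, the founding partner of Jun in AP-1, had log2 signals of 9.33 untreated, 9.47 with IFN-γ, 12.44 with IFN-γ and GW, and 11.83 with SHP siRNA. Its 2 values without GW lay close together and both values with GW stood far above them. Adding GW to IFN-γ went with a 7.84-fold higher Fos signal, ranked 6 among 11790 genes, and 1.53-fold lower with SHP siRNA than with control siRNA.

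Fosb, which encodes a Fos-type subunit and a truncated form known from chronic stimulation, had log2 signals of 6.35, 6.58, 10.39 and 8.999 in the same order. The order of its arrays was that of Fos, with a wider gap between both GW cultures. It was 14.0-fold higher with GW, the highest difference of all 11790 genes, and 2.62-fold lower with SHP siRNA, where it ranked 9 from the lowest. Against IFN-γ alone it was 5.33-fold higher with SHP siRNA, IFN-γ and GW.

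Fosl1 encodes FRA-1, a Fos protein without the main activation domain of FOS. Its log2 signals were 8.03, 9.71, 10.81 and 10.14, so that it was lowest untreated, intermediate with IFN-γ and highest with IFN-γ and GW. It was the 1 member past 2-fold in both steps, 3.22-fold higher with IFN-γ and a further 2.13-fold higher with GW. With SHP siRNA it was 1.58-fold lower.

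Jun, the main activating Jun protein gene, had log2 signals of 9.33 untreated, 9.97 with IFN-γ, 11.998 with GW and 11.36 with SHP siRNA. Like Fos it was highest in both GW cultures. It was 1.56-fold higher with IFN-γ, inside the middle 95% of genes, 4.07-fold higher with GW and 1.55-fold lower with SHP siRNA. A second probe of Jun, which was not used for the counts, gave log2 signals of 7.05, 7.75, 9.76 and 8.93. Its log2 differences of 0.70, 2.01 and -0.83 in the 3 main comparisons had the order and signs of those of the first probe (0.64, 2.02 and -0.64).

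Junb, whose protein can oppose or replace JUN, had log2 signals of 7.96, 9.90, 10.81 and 10.57. The untreated culture was the low one, and the other 3 lay within 1.87-fold of each other. It was 3.83-fold higher with IFN-γ and 1.87-fold higher again with GW, and 1.18-fold lower with SHP siRNA. Jund, a broadly expressed member of the subfamily, had 9.15, 9.26, 9.96 and 9.68. Its difference with GW, 1.62-fold, was the only 1 of the 3 main ones outside the middle 95% of genes.

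Atf3, a stress-induced factor that often represses, had log2 signals of 8.21 untreated, 9.14 with IFN-γ, 11.34 with GW and 10.55 with SHP siRNA. Its order was that of Jun, and Jun and Atf3 were the closest of all member pairs in profile, with a root mean square distance of 0.17 log2 over the 4 arrays after each gene's mean was subtracted. Atf3 was 1.91-fold higher with IFN-γ, 4.58-fold higher with GW, and 1.72-fold lower with SHP siRNA.

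Maff, whose protein acts through its partners, had log2 signals of 6.14 untreated, 8.95 with IFN-γ, 9.09 with GW and 9.22 with SHP siRNA. The 3 cultures with IFN-γ lay together and the untreated culture far below. It was 7.05-fold higher with IFN-γ, ranked 13 of 11790, and was 1.101-fold higher with GW and 1.09-fold higher with SHP siRNA. The other small Maf genes differed less with IFN-γ, Mafg by 0.29 and Mafk by 0.46 log2.

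Batf2 and Batf3, whose proteins act mostly in immune cells, had the lowest spans of the 10 genes. Batf2 had log2 signals of 6.26, 6.59, 6.31 and 6.38 and Batf3 of 6.05, 6.47, 6.58 and 6.36. Both stood slightly higher with IFN-γ, by 0.34 and 0.42 log2, inside the middle 95% of genes. All 8 of these values lay within 1 log2 unit of the table median.

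IFN-γ was compared with no treatment under control siRNA. Of the 10 members 3 were at least 2-fold higher, Maff, Junb and Fosl1, and 0 lower, where 1.61% of the 11790 genes were at least 2-fold higher, 0.288% lower and 1.9% past 2-fold in either direction. All 10 differences lay above 0, as did 40.1% of all genes. The members were chosen with earlier results of these data known. Their counts and medians beside those of all genes, here and in the next comparisons, are therefore no test. The median of the members was 0.53 log2 against -0.04 for all genes, whose middle 95% ran from -0.48 to 0.67, and 4 members lay above that range, the fourth being Atf3 at 0.93. Beside this, 9 of 10 microglia markers lay below 0, with a median of -0.52, and their part in the result was not tested.

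GW was then added to IFN-γ under control siRNA. Of the 10 members 5 were at least 2-fold higher, Fosb, Fos, Atf3, Jun and Fosl1, and 0 lower, where 0.958% of all genes were at least 2-fold higher, 0.95% lower and 1.91% past 2-fold in either direction. The median of the members was 1.00 log2 against -0.05 for all genes. With Junb at 0.90 and Jund at 0.69, 7 members lay above the middle 95%, which ran from -0.75 to 0.62. Batf2, at -0.28, was the only member below 0. After cyclic loess scaling Junb reached 1.00 and counted as a sixth gene. Microglia markers were mostly lower beside these genes, 8 of 10 below 0 with a median of -0.35. Tyrobp stood at -1.22 and Ptprc at -1.16, but Cx3cr1 at 0.68 and Tmem119 at 0.21. Of astrocyte markers 5 of 8 lay below 0, with a median of -0.24. So did 4 of 5 meningeal and fibroblast markers past the filter, with a median of -0.10 and Pdgfra at -0.85. Their part was not tested.

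In the presence of IFN-γ and GW, SHP siRNA was set against control siRNA. Of the 10 members 1 was at least 2-fold lower, Fosb at -1.39 log2, and 0 higher, where 0.263% of all genes were at least 2-fold lower, 0.144% higher and 0.407% past 2-fold in either direction. The median of the members was -0.45 log2 against 0.01 for all genes, and 8 members lay below 0. Below the middle 95%, which began at -0.46, lay 5 members: Fosb, Atf3 (-0.78), Fosl1 (-0.66), Jun (-0.64) and Fos (-0.61). At a threshold of 1.5-fold all 5 counted as lower, against 2.63% of all genes in either direction, and at 3-fold 0 did (0.0424% of all genes). Meningeal and fibroblast markers were higher beside them, 4 of 5 past the filter above 0 with a median of 0.48, with Col3a1 at 0.71, and 8 of 10 microglia markers lay above 0 with a median of 0.18. So did 6 of 8 astrocyte markers, with a median of 0.22 and Aqp4 at 0.71, and the endothelial marker Cdh5 stood at 0.55. Their part was not tested.

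**Figure D3:**
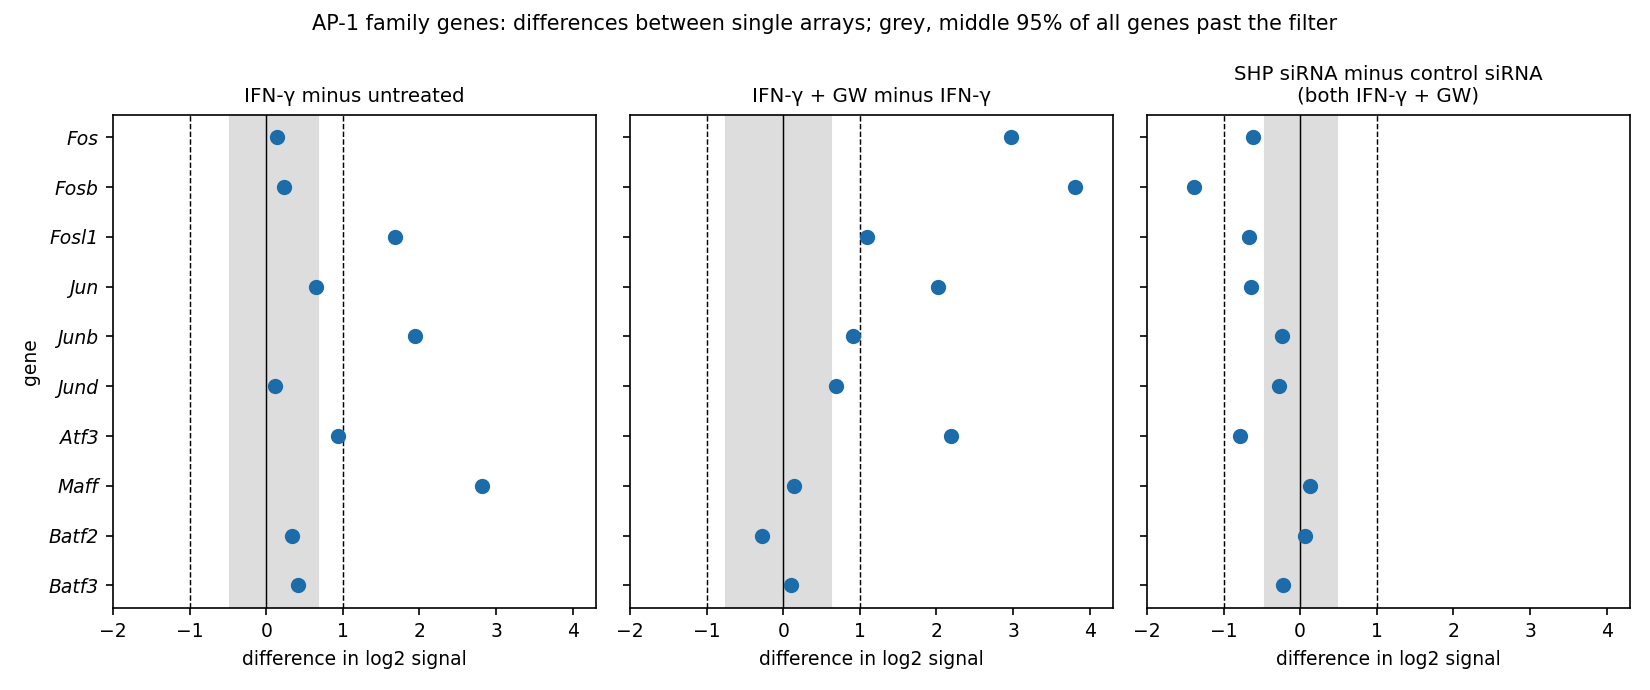
Difference in log2 signal of the 10 AP-1 family genes in the 3 main comparisons. Each point is the difference of 2 single arrays, dashed lines mark 2-fold, and grey bands the middle 95% of 11790 genes. With IFN-γ Maff, Junb and Fosl1 pass 2-fold, with GW Fosb, Fos, Atf3, Jun and Fosl1, and with SHP siRNA only Fosb, downward.

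The GW and SHP siRNA differences share the array of the IFN-γ and GW culture, whose error enters them with opposite signs, and the IFN-γ and GW differences share the array of the IFN-γ culture in the same way. The IFN-γ and SHP siRNA differences share no array.

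The outer arrays were also compared. With IFN-γ and GW, 7 members were at least 2-fold above the untreated culture and 0 below, where 1.65% of all genes were higher, 0.84% lower and 2.49% either. In the SHP siRNA culture it was 7 and 0 too, where 1.59% of all genes were higher, 0.882% lower and 2.48% either. In both cases the 7 were every member but Jund, Batf2 and Batf3. Both comparisons share the array of the untreated culture, whose error enters them with the same sign, so they are not independent. Maff was 7.77-fold and 8.50-fold higher, Junb 7.18-fold and 6.09-fold, and Fosl1 6.85-fold and 4.33-fold. Against IFN-γ alone, 4 members stood past 2-fold higher in the SHP siRNA culture and 0 lower, where 0.45% of all genes were higher, 0.407% lower and 0.857% either. They were Fosb, Fos (5.12-fold), Atf3 (2.66-fold) and Jun (2.62-fold). Fosl1 stood 1.34-fold and Junb 1.59-fold higher there.

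For each of the 7 members that spanned at least 2-fold, the nearest profiles were sought among the 531 other named genes that spanned as much, by root mean square distance over the 4 arrays. The members themselves were left out of this search, although some lie nearer to each other than some of the genes named here. Jun and Atf3 lay at 0.17, farther than Chac1 from Jun (0.16) and Ccnl1 from Atf3 (0.06). Fosl1 and Junb lay at 0.19, farther than Noct from either (0.13 and 0.15). Fos and Fosb lay at 0.37, nearer than the gene named for Fosb (0.40) but farther than those named for Fos. Outside the family, Atf3 lay nearest to the cyclin gene Ccnl1, at 0.06 log2, followed by Tfpi2 (0.19) and Ptx3 (0.23). Maff lay nearest to the chemokine gene Cxcl1 (0.11), the poliovirus receptor homologue gene Pvr (0.16) and the interferon regulatory factor gene Irf1 (0.17). These genes had IFN-γ differences of 2.52, 2.42 and 2.63 log2 and GW differences of 0.26, 0.30 and -0.14.

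The other members had these neighbours outside the family. Fos lay nearest to Flrt3 (0.14), the matricellular gene Ccn1 (0.19) and the cochaperone gene Dnajb1 (0.21), and Jun to Chac1 (0.16), Zfand2a and Ccnl1 (both 0.21). Junb lay nearest to Gadd45b, a stress gene (0.15), Noct (0.15) and Zfp36 (0.19). Fosl1 lay nearest to Noct (0.13), Klf6 (0.17) and C3h11orf96 (0.21). For Fosb, whose span was the widest of the members, the nearest gene outside the family was Ccn1 at 0.40.

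The other bZIP genes include partners and rivals of AP-1. Of 33 on the lists 29 had a probe and 28 passed the filter. Fosl2, Cebpd and Hlf were not analysed here. With IFN-γ 0 reached 2-fold in either direction, where 1.9% of all genes did. The median was 0.05 log2, and Maf, a large Maf gene, was lowest at -0.89. With GW the median was 0.15, and 2 of 28 passed 2-fold upward and 0 downward, where 0.958% of all genes were higher and 0.95% lower. The 2 were Nfil3, a repressor of the bZIP type that acts in the clock and in immune cells, and Cebpb, which drives inflammatory genes. With SHP siRNA 1 of 28 was at least 2-fold lower, again Nfil3, where 0.263% of all genes were, and the median was -0.08.

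Nfil3 had log2 signals of 6.58 untreated, 6.73 with IFN-γ, 9.34 with GW and 7.89 with SHP siRNA, the order of Fosb. It was 6.11-fold higher with GW and 2.72-fold lower with SHP siRNA. Cebpb had 6.97, 7.42, 8.42 and 7.93. Among partners that are closer to AP-1, the Jun dimerization protein gene Jdp2 differed by 0.42, 0.12 and 0.01 log2 in the 3 main comparisons, Atf2 by -0.03, 0.20 and -0.06, Atf7 by -0.16, 0.36 and -0.38, and Batf by -0.33, -0.01 and -0.10. None of these 4 genes reached 1.5-fold in any of the 3.

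Apart from Nfil3 and Cebpb, the GW differences of the 28 genes ran from -0.32 to 0.90 log2. Crem and Creb5, whose names refer to the cyclic AMP response element, stood at 0.73 and 0.18 log2 with GW, Creb1 at -0.03 and Atf1 at 0.45. The integrated stress response genes Atf4, Atf5 and Ddit3 stood at 0.18, 0.00 and 0.35, and Atf6 and Xbp1 of the unfolded protein response at -0.07 and 0.04. Bach2, a repressor that pairs with small Maf proteins, stood at 0.90 with GW, and Bach1 at -0.18 with GW and 0.49 with IFN-γ. Nfe2l2, which encodes NRF2, and Nfe2l1 stood at -0.22 and -0.32 with GW. The clock output genes Dbp and Tef stood at -0.23 and -0.26. None of these genes reached 2-fold in the 3 comparisons.

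**Figure D4:**
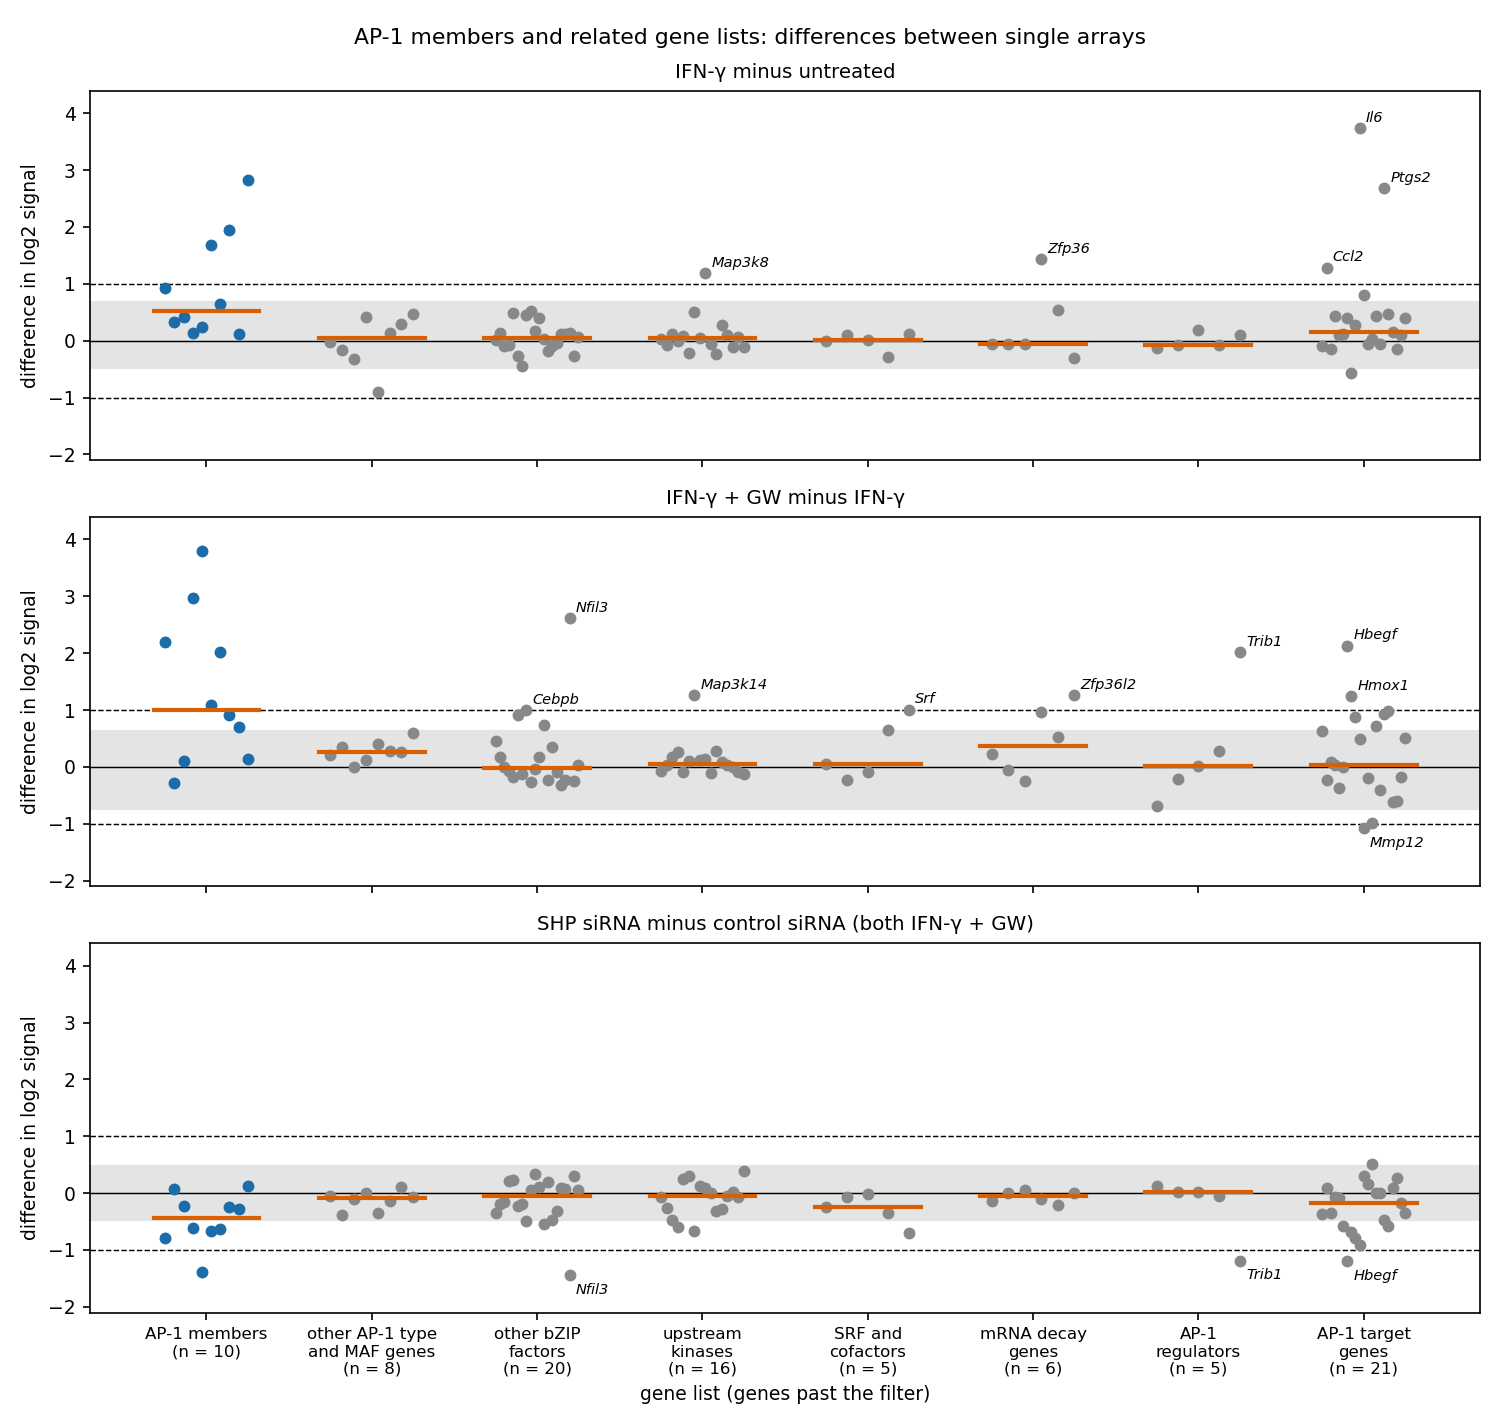
Difference in log2 signal in the 3 main comparisons for the AP-1 members (blue) and 7 sets without members (grey), for genes past the filter. The sets are other AP-1 type and Maf genes, other bZIP factors, kinases, SRF and cofactors, mRNA decay and stabilising genes, AP-1 regulators and AP-1 targets. Each point is 1 gene, orange bars are list medians, dashed lines mark 2-fold and grey bands the middle 95% of all genes. The member medians of 0.53, 1.00 and -0.45 log2 stand farther from 0 than the medians of these 7 sets in the same panel. Members and lists were chosen with earlier results of these data known, so the gap between the medians is no test.

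MAP kinases act mainly by phosphorylation of Jun and of the factors that induce Fos. Of 16 kinase genes past the filter 1 was at least 2-fold higher with IFN-γ, where 1.61% of all genes were. It was Map3k8, an activator of ERK signalling in inflammation (1.18 log2). With GW 1 was higher, Map3k14 of the alternative NF-κB pathway (1.26), where 0.958% of all genes were, and the medians were 0.04 and 0.06. With SHP siRNA 0 reached 2-fold in either direction, where 0.407% of all genes did. The JNK genes Mapk8, Mapk9 and Mapk10 lay between -0.12 and 0.10 in all 3 comparisons. Serum response factor, which binds the Fos promoter with the ELK factors, had log2 signals of 8.54, 8.66, 9.67 and 8.97 for its gene Srf. Srf was 2.01-fold higher with GW and 1.62-fold lower with SHP siRNA, and the other 4 genes of that list, Elk1, Elk3, Elk4 and Mrtfa, stayed within 2-fold.

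Tristetraprolin, the product of Zfp36, promotes the decay of transcripts with AU-rich elements, a class that includes Fos. Zfp36 had log2 signals of 10.63, 12.07, 13.04 and 12.94, with the untreated culture the lowest. The list held 6 genes for proteins that bind AU-rich elements, both decay and stabilising factors. Of these 1 was at least 2-fold higher with IFN-γ (Zfp36, 1.44) and 1 with GW (Zfp36l2, 1.26, and 0.95 for its dimmer probe). Of all genes 1.61% were at least 2-fold higher with IFN-γ and 0.958% with GW. Among 5 measured regulators of AP-1 proteins Trib1, a scaffold for the ligase that degrades some bZIP proteins, was 2.02 log2 higher with GW and -1.19 with SHP siRNA. Cops5, which encodes the Jun coactivator JAB1, stood at -0.69 with GW.

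Genes known as AP-1 targets in other systems were listed next. Of 28 on the list 21 passed the filter. With IFN-γ 3 passed 2-fold upward, Il6 (3.73 log2), Ptgs2 (2.68) and Ccl2 (1.28), and 0 downward, and the median was 0.16. Of all genes 1.61% were higher and 0.288% lower there. With GW 2 were higher, Hbegf, a growth factor of the epidermal growth factor family (2.13), and Hmox1, heme oxygenase (1.25). The metalloproteinase gene Mmp12 (-1.08) was the 1 lower gene. Of all genes 0.958% were higher and 0.95% lower. Against the untreated culture, Hbegf stood at 2.53 log2, Hmox1 at 0.68 and Mmp12 at -0.28 with IFN-γ and GW. The median of the 21 genes with GW added was 0.03, and Mmp9 stood at -0.99. With SHP siRNA 1 was lower, Hbegf (-1.19), where 0.263% of all genes were. Il6 stood at -0.92 and Il11 at -0.79, and the median was -0.18.

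Hbegf had log2 signals of 7.79, 8.19, 10.32 and 9.13 in the order of the arrays above. It was low without GW, highest with IFN-γ and GW, and intermediate with SHP siRNA, the order also of Fosb, Nfil3 and Trib1. That order was not particular to these genes, since Fos, Jun, Atf3, Cebpb and Srf, among others, had it too. Mmp3, Mmp10, Mmp13, Ereg and Nts stayed below 5.83 in every array and were not counted.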

How the data were processed

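RNA was measured on 4 single-colour arrays, 1 per group. The deposited table holds 29489 probes, with values between 1.14 and 13.4, taken as log2 signal for that range. For the authors' background correction and normalization, the method and log base were not given in the sources used here. Per the labels' protocols, Trizol RNA was converted to sense cDNA and labelled with biotin. The annotation gave 1 symbol to 18511 probes, several to 575 and none to 10403. Genes whose highest value reached 5.83, the median of the table, were kept.

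Differences of log2 values were computed in Python 3.11.15 and counted at 2-fold. The 10 members and 12 gene lists were chosen with earlier results of these data known, and the motifs after the values were seen; a further motif and 1 listed gene are not reported here. Genes named in the text are all members, the bZIP lists, up to 4 genes with the largest differences of each other list, the 3 nearest profiles of each member, and Nr0b2; other list genes, such as Mapk8 and Il11, were named after their values were seen. The calculation was tested on simulated data. Alternatives were quantile normalization, cyclic loess (limma 3.58.1, R 4.3.3), median centring, other filters, thresholds of 1.5-fold and 3-fold, other probes and current symbols. The same alternatives for the outer comparisons were added after seeing the data.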

Additional observations from a re-analysis of the deposited data

How the results depend on the processing

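No paired analysis was possible because each group holds 1 array. A value was taken as moved when it shifted by more than the robust SD of that difference over all genes (0.16, 0.27 and 0.19 log2 in the 3 main comparisons). Of 150 recomputed differences of the members 149 moved by less and 1 by more, that of the dimmer Jun probe with SHP siRNA (-0.83). Only Jun had a second probe, so recomputing with other probes could not move the other members. Quantile normalization, median centring and cyclic loess gave 90 of the 150. Under these scalings none (0) changed sign, and the largest shift was 0.11 log2. The count of members at the threshold depended on the threshold itself. At 1.5-fold it was 5 with IFN-γ in place of 3 (4.61% of all genes) and 5 with SHP siRNA in place of 1 (2.63%). At 3-fold it was 0 with SHP siRNA (0.0424%), and 2 in place of 4 for SHP siRNA with GW against IFN-γ alone (0.204%). Under the other alternatives the counts of the 6 comparisons stayed within 1.5 times. Of 288 recomputed list medians 1 moved, that of the large Maf genes with IFN-γ, to -0.061 without the filter from -0.38, since Nrl then enters. Many of the 288 could not move, in lists whose genes each had 1 probe or all passed the filter. Medians near 0 have no firm direction: with GW, the 20 bZIP factors outside the AP-1 and Maf subfamilies (-0.01) and the 3 BATF genes (-0.01) turned sign under all 3 scalings, and the regulator list with SHP siRNA (0.02) under quantile normalization and cyclic loess. The other probe of Zfp36l2 gave -0.07 with IFN-γ and 0.95 with GW, and that of Creb1 0.03 with SHP siRNA.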

Other observations

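Some bZIP genes are direct neighbours in the genome and had unlike values, by the order of protein-coding genes in RefSeq's rat assembly GRCr8. Atf3 and Batf3 have 0 protein-coding genes between them. With GW Atf3 stood at 2.19 log2 and Batf3 at 0.11, and with IFN-γ at 0.93 and 0.42. Fos and Jdp2 are also adjacent, followed by Batf. With GW Fos stood at 2.97, Jdp2 at 0.12 and Batf at -0.01, and with SHP siRNA Fos stood at -0.61, Jdp2 at 0.01 and Batf at -0.10. Cebpa and Cebpg, another adjacent pair, differed in sign with IFN-γ, at -0.45 and 0.52. These pairs were looked at after the values were seen.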
